A study of Mus musculus with 11 samples.

Results

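The tumour suppressor p53 and 9 of its best established target genes were followed in neural stem cells (NSCs), the dividing cells from which neurons and glia arise. The 10 genes were listed by symbol and not by a threshold on their values, each matched 1 gene identifier among the 53801 genes of the deposited tables, and all 10 passed the filter on low counts in every comparison. They are Trp53, which encodes p53, and Mdm2, Cdkn1a, Ccng1, Sesn1, Sesn2, Trp53inp1, Phlda3, Zmat3 and Eda2r.

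The cells were primary NSCs from the hippocampus of mouse embryos (C57BL/6, per the study's methods). All were cultured for 7 days, either in proliferation medium, with the growth factors bFGF and EGF (20 ng/ml each) and B27 at 1%, or in differentiation medium, for which neither growth factor is listed and which held B27 at 2%. In each medium cells received 1 µM 4HBP or EtOH, the solvent control. There were 3 libraries with 4HBP and 3 with EtOH in proliferation medium, and 3 with 4HBP and 2 with EtOH in differentiation medium. The compound is named 4-hydroxybenzophenone in the study and 4-hydroxybenzoic acid in the sample labels, so its identity is given here only as 4HBP. The labels do not say whether replicates were separate cultures, so the p-values measure only the spread between these libraries, which may be technical.

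p53 is a transcription factor that is kept scarce in unstressed cells, chiefly because Mdm2, a ubiquitin ligase, marks it for degradation. DNA damage, oncogene activity, nucleolar stress and other insults free p53 from this control, and it then switches on genes for cell cycle arrest, DNA repair, metabolic adjustment and cell death. Mdm2 is itself a p53 target, which closes a negative feedback loop, so p53 activity shows in the RNA of its targets more than in Trp53 RNA. In NSCs p53 and p21, the product of Cdkn1a, are known to limit self-renewal.

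The libraries held between 20822921 and 23438463 expected counts, and 3 counts were worth 0.128 to 0.144 CPM, the unit that divides a count by its library's total. Levels of a gene are given as normalised CPM, after TMM scaling over the 11 libraries, and levels of different genes are compared only as TPM, which accounts for transcript length. Spread was larger in proliferation medium, with a biological coefficient of variation of 0.117 against 0.0368 in differentiation medium. In proliferation medium 4HBP replicate 3 stood apart from its group, with a mean chi-square per gene of 25.6 and 23 against replicates 1 and 2, which differed from each other by 5.62. The 6 neural stem cell and radial glia markers reached 4300 to 5260 normalised CPM in sum in proliferation medium and 1540 to 1560 in differentiation medium, and the 5 neuron markers 899 to 1050 over all libraries. Map2 made up most of the neuron sum, with EtOH means of 836 in proliferation and 667 in differentiation medium. The same means rose for Dcx (120 to 176), Tubb3 (49.2 to 62.5), Snap25 (4.06 to 9.7) and Rbfox3 (1.64 to 2.75). The 6 microglia and macrophage markers summed to at most 3.9 in any library, with Aif1 and Cx3cr1 at 0 in proliferation medium. The 5 endothelial and mural markers summed to between 4.17 and 5.53 normalised CPM in proliferation and between 28.7 and 32.3 in differentiation medium, and the 5 fibroblast markers to between 2.42 and 4.24 and between 17.8 and 20.2. In differentiation medium Pdgfrb held 26.5 to 29.4 of the first of these sums and Pdgfrl at least 16.9 of the second, while Cldn5 was at 0 in all 11 libraries and Pecam1, Col1a1, Col3a1, Dcn and Lum were at most 0.625 in any. The 5 astrocyte markers, in turn, summed to between 5340 and 5710 normalised CPM with 4HBP and between 6740 and 7340 with EtOH in proliferation medium, and the 5 oligodendrocyte lineage markers to between 1510 and 2680 and between 2440 and 3040. In differentiation medium the astrocyte sums lay between 5290 and 5530 with 4HBP and between 5390 and 5590 with EtOH, and the oligodendrocyte sums between 6520 and 6750 and between 6470 and 6790. The astrocyte markers did not move together between the media. EtOH means fell from proliferation to differentiation medium for Aldh1l1 (827 to 275), Gfap (2380 to 1540) and Slc1a3 (2920 to 2650). They rose for Aqp4 (801 to 965) and S100b (25.7 to 54.1). In such bulk RNA, fewer cells of a type and less RNA per cell cannot be told apart, and the part of these marker differences in the results was not tested.

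The promoters are shown first, since p53 acts on these genes through DNA. p53 binds a pair of half-sites, each of 10 bases in which a C, 2 bases of A or T and a G lie between 3 purines and 3 pyrimidines. RefSeq promoter windows (GRCm38.p6, 250 bases before a start to 50 after it) were at hand for 8 of the 10 genes, with 10 windows in all. Trp53inp1 and Zmat3 had none. An exact match to the p53 half-site, searched on the strand printed (the half-site pattern is its own reverse complement), was found in 5 of the 10 windows and in 8.36% of all 32851 windows. A full site, here 2 half-sites with up to 13 bases between them, the C and G of each kept and up to 2 mismatches in all, was found in 3 of the 10 windows and in 4.09% of all windows. The 100 bases around the matches are printed 5′ to 3′ on the strand of the gene, with the matched bases in capitals:
Cdkn1a: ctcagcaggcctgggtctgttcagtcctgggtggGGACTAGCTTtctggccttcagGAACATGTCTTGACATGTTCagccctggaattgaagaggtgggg
Ccng1: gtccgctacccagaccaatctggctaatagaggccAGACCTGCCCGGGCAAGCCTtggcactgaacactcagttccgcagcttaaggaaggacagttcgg
Mdm2: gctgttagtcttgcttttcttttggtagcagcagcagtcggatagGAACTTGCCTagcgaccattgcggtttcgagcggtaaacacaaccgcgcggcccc
Trp53: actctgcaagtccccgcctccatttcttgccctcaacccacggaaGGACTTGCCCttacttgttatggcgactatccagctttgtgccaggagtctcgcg
Sesn1: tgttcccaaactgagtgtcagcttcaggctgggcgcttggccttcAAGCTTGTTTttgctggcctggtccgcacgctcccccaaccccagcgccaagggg

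These stretches lie at chr17:29090872-29090971 (+) for Cdkn1a, chr11:40755417-40755516 (-) for Ccng1, chr10:117710890-117710989 (-) for Mdm2, chr11:69580239-69580338 (+) for Trp53 and chr10:41887221-41887320 (+) for Sesn1. Cdkn1a has 2 windows with different starts, and positions here refer to the start of the printed window. In it the 20-base run in capitals is a full site with no spacer and 1 mismatch, 51 to 32 bases before that start. A further half-site begins 73 bases before the same start. In Ccng1 the 20 capitals are likewise a full site with no spacer and 1 mismatch, from 195 to 176 bases before the start, whose second half-site is exact. The 2 exact half-sites of Cdkn1a also make a full site with no mismatch and a spacer of 12 bases. Mdm2 and Trp53 hold 1 half-site each, and Sesn1 holds 1 half-site in the second of its 2 windows, which also counts as part of a full site with 2 mismatches. The windows of Sesn2, Phlda3 and Eda2r, the other window of Cdkn1a and the first of Sesn1 hold no exact half-site. A match says only that these letters are present, and no match only that they are absent from this window.

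The first question is whether 4HBP shifts the p53 genes in dividing NSCs. In proliferation medium 9 of the 10 genes were higher with 4HBP at an adjusted p under 0.05 (edgeR quasi-likelihood test, Benjamini-Hochberg adjustment over 14449 genes), where 7.43% of all genes tested passed in either direction and 3.74% passed as higher and 3.69% as lower. Fold changes ran from 1.40 for Trp53 to 2.66 for Cdkn1a. The median log2 fold change of the 10 genes was 0.58, beside 0.00 over all genes tested. For these 9 genes every 4HBP library was above every EtOH library, which was so for 16.2% of all genes. With Sesn1 counted, none of the 10 overlapped between the groups, beside 31.3% of all genes without overlap. Sesn1 was the 1 gene that did not pass, and its values ran the other way.

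**Figure D1:**
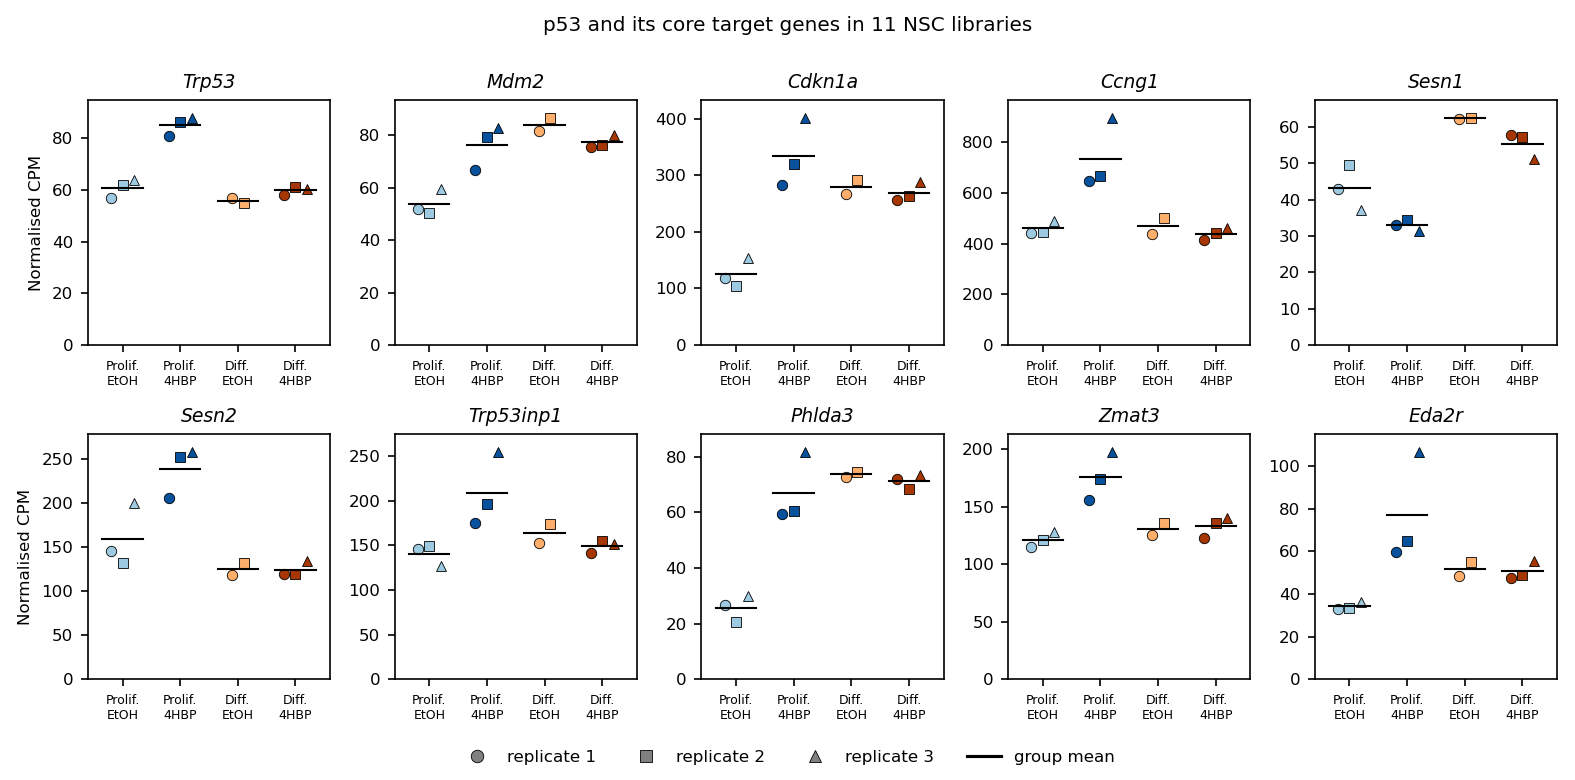
Normalised CPM of the 10 genes in each of the 11 libraries (vertical axes, linear and starting at 0), by medium and treatment (horizontal axes). Symbols mark replicates and bars group means. In proliferation medium the 4HBP points lie above the EtOH points for 9 genes and below them for Sesn1, whereas in differentiation medium the treatments lie close together.

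The transcription factor and its inhibitor moved by similar amounts. Trp53 (ENSMUSG00000059552.13, chr11:69580359-69591873, + strand) read 80.9, 86.4 and 87.8 normalised CPM with 4HBP and 56.8, 61.9 and 63.7 with EtOH. The groups did not overlap, and the log2 fold change was 0.48 (SE 0.08, edgeR adjusted p = 0.00996). Mdm2 (ENSMUSG00000020184.15, chr10:117688875-117710758, - strand) read 66.6, 79.4 and 82.7 with 4HBP and 52.0, 50.2 and 59.6 with EtOH. Its groups also did not overlap, and it rose by 0.50 on the log2 scale (SE 0.10, edgeR adjusted p = 0.0239).

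Cdkn1a, which encodes p21, the inhibitor of cyclin-dependent kinases that carries out p53-driven arrest, showed the largest change of the 10 in this medium. Cdkn1a (ENSMUSG00000023067.13, chr17:29090976-29100727, + strand) read 282, 320 and 401 normalised CPM with 4HBP against 119, 104 and 154 with EtOH. The lowest 4HBP library was thus well above the highest EtOH library, and the log2 fold change was 1.41 (SE 0.16, edgeR adjusted p = 0.0042). Ccng1 encodes cyclin G1, a p53-induced partner of the phosphatase PP2A that acts back on Mdm2. Ccng1 (ENSMUSG00000020326.7, chr11:40748552-40755311, - strand) read 646, 664 and 893 with 4HBP and 443, 444 and 491 with EtOH, a log2 fold change of 0.68 (SE 0.13, edgeR adjusted p = 0.0179). The fold changes of these genes, the pair with a full p53 site of at most 1 mismatch printed above, were 2.66 for Cdkn1a and 1.60 for Ccng1. Among genes whose windows hold no exact half-site, Phlda3 was at 2.61 and Eda2r at 2.24, both above Ccng1, and Sesn2 was below it. Sesn1, with a full site of 2 mismatches, was at 0.76 and did not pass. Mdm2 and Trp53, with 1 half-site each, were below Ccng1. A link between these sites and the size of the change was not tested.

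The pair of sestrins parted. Sestrins restrain the growth kinase mTORC1, Sesn2 by sensing leucine, and Sesn2 is also induced by ATF4, the transcription factor of the integrated stress response, which slows translation and raises amino acid supply. Sesn2 (ENSMUSG00000028893.8, chr4:132492032-132510501, - strand) read 205, 252 and 257 normalised CPM with 4HBP and 145, 132 and 200 with EtOH, a log2 fold change of 0.58 (SE 0.15) whose edgeR adjusted p of 0.04997 lay at the threshold. Sesn1 (ENSMUSG00000038332.13, chr10:41809935-41908424, + strand) read 33.1, 34.4 and 31.3 with 4HBP and 42.9, 49.6 and 37.3 with EtOH. All 3 of its 4HBP libraries were below the EtOH libraries, but the log2 fold change of -0.39 (SE 0.11, edgeR adjusted p = 0.0576) did not pass. It passed as lower with DESeq2 (adjusted p = 0.0239), with voom (0.0406), with no filter on low counts (0.0315) and without EtOH replicate 3 (0.0306). Each sestrin overlaps 1 other annotated gene on its own strand, 9930024M15Rik for Sesn1 and Gm12981 for Sesn2, with at most 4 and 7 counts in any library, and the other 8 genes overlap none.

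The 4 remaining genes act in stress signalling, survival and RNA. Phlda3 encodes a pleckstrin homology protein that holds back the survival kinase Akt. Phlda3 (ENSMUSG00000041801.5, chr1:135766119-135769136, + strand) read 59.3, 60.5 and 81.6 normalised CPM with 4HBP and 26.6, 20.6 and 30.1 with EtOH, a log2 fold change of 1.38 (SE 0.16, edgeR adjusted p = 0.0042). Eda2r encodes a receptor of the TNF receptor superfamily for ectodysplasin A2. Eda2r (ENSMUSG00000034457.10, chrX:97333840-97377216, - strand) read 59.5, 64.6 and 106 with 4HBP and 32.9, 33.4 and 36.5 with EtOH, a log2 fold change of 1.17 (SE 0.20, edgeR adjusted p = 0.0131). For both genes the lowest 4HBP library was well above the highest EtOH library, and for Eda2r 4HBP replicate 3 stood far above the other libraries.

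Trp53inp1 encodes a nuclear and autophagy protein that promotes p53 phosphorylation, and Zmat3 a zinc finger protein that binds RNA. Trp53inp1 (ENSMUSG00000028211.11, chr4:11156431-11174379, + strand) read 175, 197 and 254 normalised CPM with 4HBP and 146, 149 and 127 with EtOH, a log2 fold change of 0.57 (SE 0.13, edgeR adjusted p = 0.0345). Zmat3 (ENSMUSG00000027663.12, chr3:32334792-32366014, - strand) read 156, 174 and 197 with 4HBP and 115, 121 and 128 with EtOH, a log2 fold change of 0.54 (SE 0.09, edgeR adjusted p = 0.0145). Neither gene's groups overlapped.

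Within the 4HBP group 9 of the 10 genes had the same order of libraries. Replicate 3 stood apart over all genes, as given above, and the share of all genes with that order was not counted. Replicate 3 was the highest of the 3 for 9 of the 10 genes and the lowest for Sesn1, and replicate 1 was the lowest for the other 9. In the EtOH group replicate 3 was the highest for 8 of the 10. Without 4HBP replicate 3, which stood apart, 8 of the 10 genes still passed, all but Sesn1 and Sesn2, beside 1429 of 14655 genes. The log2 fold change in that fit was 1.26 for Cdkn1a, 1.22 for Phlda3 and 0.86 for Eda2r. The calls depended on EtOH replicates 1 and 2 more, as did those over all genes. Without EtOH replicate 1 only Cdkn1a and Phlda3 passed, beside 107 of 14685 genes. The same 2 passed without EtOH replicate 2, beside 137 of 14688. Without 4HBP replicate 2 the number was 6, with Mdm2, Sesn2 and Trp53inp1 lost, beside 290 of 14727. Without EtOH replicate 3 it was 9, of which 8 were higher and Sesn1 lower, beside 958 of 14716. No direction changed in any of these 6 fits, in which Trp53 ranged from 0.44 to 0.52 and Cdkn1a from 1.26 to 1.58 on the log2 scale. With limma on log2(CPM+1), the kind of test used in the study, none of the 10 passed at an adjusted p under 0.05, beside 67 of the 27295 genes in that fit. All 10 had an unadjusted p under 0.05, beside 14.7% of those genes. The study itself called genes by an unadjusted p under 0.05 with a cut on the fold change, a rule not applied here. In that limma fit the log2 fold change was 1.44 for Cdkn1a, 1.38 for Phlda3, 1.13 for Eda2r, 0.69 for Ccng1 and 0.63 for Sesn2. It was 0.59 for Trp53inp1, 0.56 for Zmat3, 0.52 for Mdm2 and 0.51 for Trp53, and negative for Sesn1.

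**Figure D2:**
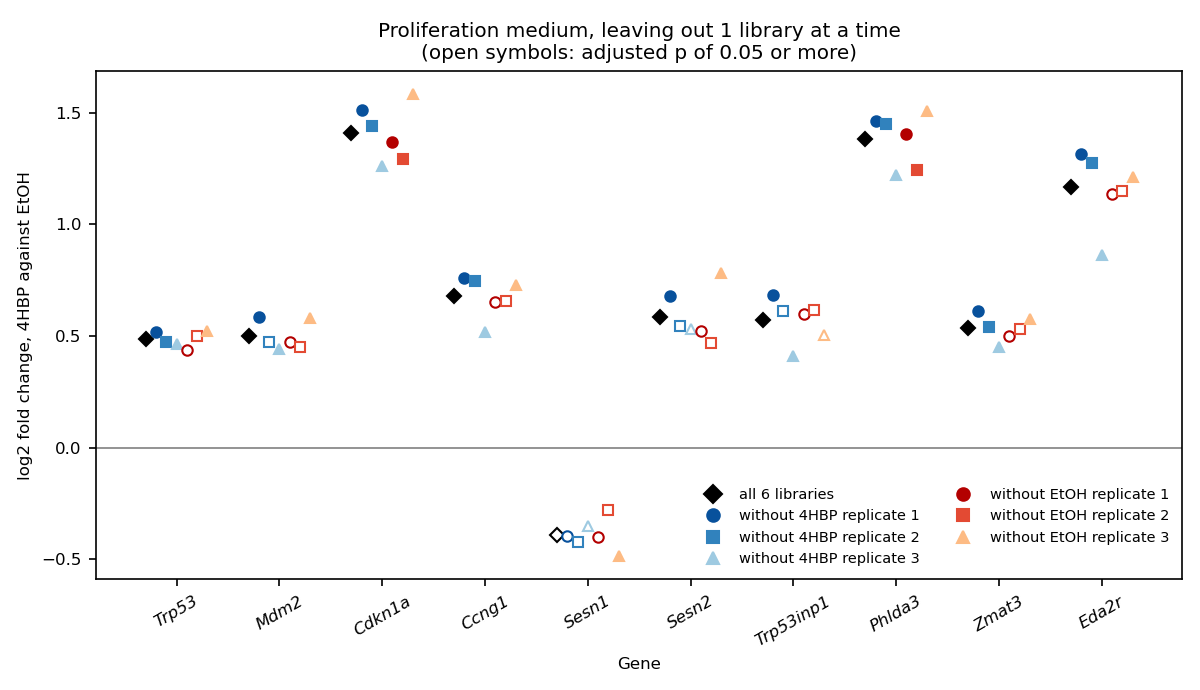
log2 fold change of 4HBP against EtOH in proliferation medium (vertical axis) for each gene (horizontal axis), with all 6 libraries (diamonds) and with 1 library left out at a time. Filled symbols have an adjusted p under 0.05. Signs did not change, and only Cdkn1a and Phlda3 stayed filled throughout.

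In differentiation medium none of the 10 genes passed the edgeR test, where 2.55% of 15484 genes did (1.26% as higher with 4HBP and 1.29% as lower). At an unadjusted p under 0.05 there were 4, Mdm2, Ccng1, Sesn1 and Trp53inp1, all with lower values under 4HBP, beside 15.9% of all genes tested. At an adjusted p under 0.05 the number was also 0 with DESeq2, beside 275 of 15484 genes, and with voom, beside 63 of 15920. It was 0 with limma on log2(CPM+1) too, but there 0 of all 27295 genes passed, so that fit says nothing particular to the 10. With no filter on low counts 2 passed, Sesn1 (adjusted p = 0.0321) and Trp53inp1 (0.0348), both lower with 4HBP, beside 778 of 25556 genes. With the replicate block 3 passed, Mdm2 (0.0418), Ccng1 (0.0022) and Trp53inp1 (0.0137), all lower with 4HBP, beside 745 of 15484 genes. The median log2 fold change of the 10 genes was -0.06, beside 0.00 over all genes tested.

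The intervals were narrow here. Cdkn1a read 256, 264 and 287 normalised CPM with 4HBP and 266 and 291 with EtOH. These values overlap, and the log2 fold change of -0.06 had a 95% interval from -0.16 to 0.04. Trp53 read 58.2, 61.2 and 60.4 with 4HBP and 57.0 and 54.8 with EtOH, a log2 fold change of 0.09 with an interval from -0.01 to 0.19. Mdm2 read 75.5, 76.1 and 80.0 with 4HBP and 81.5 and 86.4 with EtOH, and its log2 fold change was -0.13 (SE 0.04, edgeR adjusted p = 0.148). Phlda3 read 72.1, 68.6 and 73.3 with 4HBP and 72.9 and 74.5 with EtOH, and the interval of its log2 fold change of -0.06 ran from -0.15 to 0.04. Across the 10 genes, the upper bound of the 95% interval was highest for Trp53, followed by 0.13 for Zmat3.

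Sesn1 had the lowest log2 fold change of the 10 in differentiation medium, as it had in proliferation medium. It read 57.7, 57.3 and 51.1 normalised CPM with 4HBP and 62.3 and 62.4 with EtOH, a log2 fold change of -0.18 (SE 0.05, edgeR adjusted p = 0.111). The groups did not overlap for Sesn1, Mdm2 and Trp53, beside 32.9% of all genes tested in this medium. Of these Trp53 was above in every 4HBP library, beside 17.4% of all genes.

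**Figure D3:**
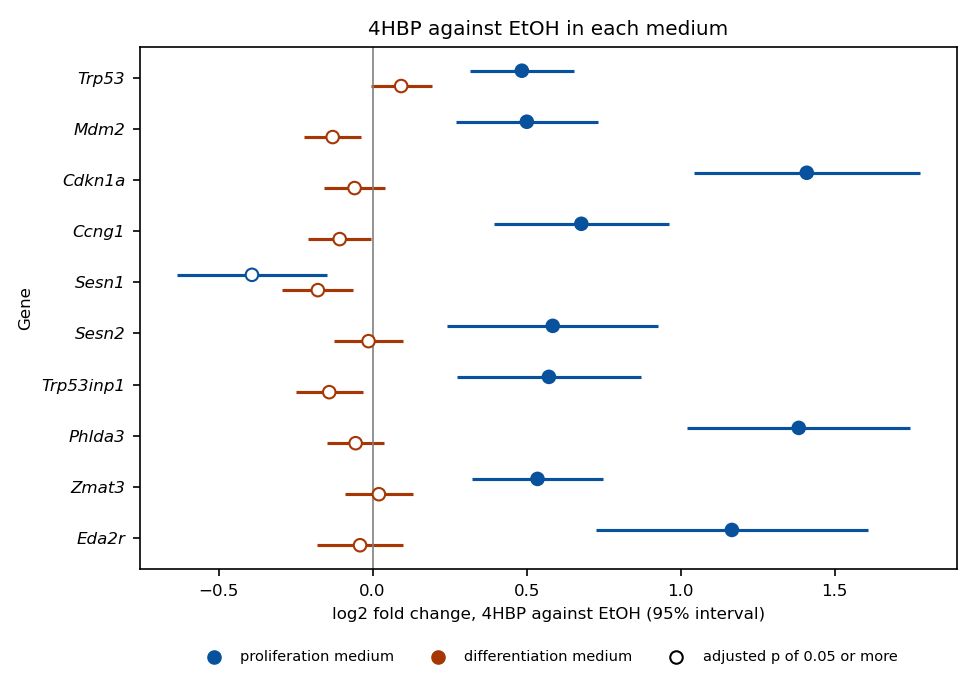
log2 fold change of 4HBP against EtOH (horizontal axis) with its 95% interval for each gene (vertical axis) in proliferation and differentiation medium. Filled points have an adjusted p under 0.05. The intervals for Cdkn1a run from 1.04 to 1.78 in proliferation medium and from -0.16 to 0.04 in differentiation medium.

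The difference between the media was tested directly, in a fit over all 11 libraries. The 4HBP effect was larger in proliferation medium for 8 of the 10 genes, where 4.49% of 15920 genes passed in either direction, 2.01% passed as larger in proliferation medium and 2.48% as smaller. The difference was 1.46 for Cdkn1a (SE 0.20, edgeR adjusted p = 0.0030) and 1.43 for Phlda3 (SE 0.20, edgeR adjusted p = 0.0027), on the log2 scale. It was 1.20 for Eda2r, 0.78 for Ccng1, 0.70 for Trp53inp1, 0.62 for Mdm2, 0.51 for Zmat3 and 0.38 for Trp53, with edgeR adjusted p-values up to 0.0399. Sesn2, with a difference of 0.59 (SE 0.20, edgeR adjusted p = 0.119), and Sesn1, with -0.22 (SE 0.14, edgeR adjusted p = 0.399), did not pass. The difference for Sesn2 passed with no filter on low counts (adjusted p = 9.4e-06), with the replicate block (0.0271), with voom (0.0428) and without proliferation EtOH replicate 3 (0.0075). Leaving out 1 library at a time gave between 2 and 8 of the 10. The 2 that remained each time were Cdkn1a and Phlda3, and these also passed with limma on log2(CPM+1), in which no others did. The number was 2 without differentiation 4HBP replicate 1, without differentiation 4HBP replicate 2 or without either differentiation EtOH library, 3 without proliferation EtOH replicate 1, 4 without proliferation EtOH replicate 2, 5 without differentiation 4HBP replicate 3 and 6 without proliferation 4HBP replicate 2.

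The media were then compared within each treatment, which uses the same libraries as the treatment comparisons, so the values are not independent of them. Comparing EtOH cultures, 6 of the 10 were higher in differentiation medium and none was lower, where 62.9% of 15308 genes passed in either direction, 31.4% passed as higher and 31.5% as lower. The median log2 fold change of the 10 genes was 0.38, beside 0.02 over all genes tested. Phlda3 rose from a mean of 25.8 ± 4.80 normalised CPM (SD, n = 3) to 73.7 ± 1.11 (n = 2), a log2 fold change of 1.52 (SE 0.13, edgeR adjusted p = 7.2e-06). Cdkn1a rose from 126 ± 25.7 to 279 ± 17.5, a log2 fold change of 1.16 (SE 0.13, edgeR adjusted p = 6.0e-05). The log2 fold change was 0.65 for Mdm2, 0.60 for Eda2r, 0.54 for Sesn1 and 0.23 for Trp53inp1. The last of these had an edgeR adjusted p of 0.0427 and lost its call without differentiation EtOH replicate 2 (0.359), without proliferation EtOH replicate 1 (0.0660) or 3 (0.0846), and with limma or voom. There was no overlap between the media for 7 of the 10, the 6 above and Sesn2, beside 77.2% of all genes, and every differentiation library was above for 6, beside 39.0%.

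Trp53 RNA did not pass between the media in EtOH cultures, with means of 60.8 ± 3.61 normalised CPM in proliferation medium and 55.9 ± 1.53 in differentiation medium, and its log2 fold change of -0.11 had a 95% interval from -0.28 to 0.06. Ccng1 (log2 fold change 0.04), Zmat3 (0.11) and Sesn2 (-0.34, edgeR adjusted p = 0.0746) did not pass either, although Sesn2 passed as lower with no filter on low counts (adjusted p = 0.0026), with voom (0.0301) and without proliferation EtOH replicate 2 (edgeR adjusted p = 0.0153).

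Under 4HBP the order of the media was different. Here 7 of the 10 genes were lower in differentiation medium and 1, Sesn1, was higher, where 67.4% of 15050 genes passed in either direction, 34.1% passed as lower and 33.3% as higher. The median of the 10 was -0.44, beside 0.00 over all genes tested. Sesn2 fell by 0.93 on the log2 scale (SE 0.09, edgeR adjusted p = 2.4e-05), Ccng1 by 0.74, Eda2r by 0.60, Trp53 by 0.50, Trp53inp1 by 0.48, Zmat3 by 0.40 and Cdkn1a by 0.31. The log2 fold change was 0.75 for Sesn1 (SE 0.07), and 0.02 for Mdm2 and 0.09 for Phlda3, which did not pass. Media were apart without overlap for 7 of the 10, beside 73.1% of all genes, and Sesn1 was the 1 gene with every differentiation library above, beside 36.3%. Cdkn1a (edgeR adjusted p = 0.0427) was the 1 gene of the 7 whose values overlapped between the media, with the lowest proliferation library at 282 and the highest differentiation library at 287 normalised CPM. Its call was lost in 4 of the 6 fits that left out 1 library (adjusted p between 0.0597 and 0.134), all but those without proliferation 4HBP replicate 1 or 3. Eda2r lost its call without differentiation 4HBP replicate 1 (0.0765) or 2 (0.0695), and Phlda3 passed as higher, by 0.25, without proliferation 4HBP replicate 3. With limma on log2(CPM+1), 4 of the 10 passed, Trp53, Ccng1, Sesn2 and Sesn1, beside 10043 of 27295 genes, so the share is near that of all genes.

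**Figure D4:**
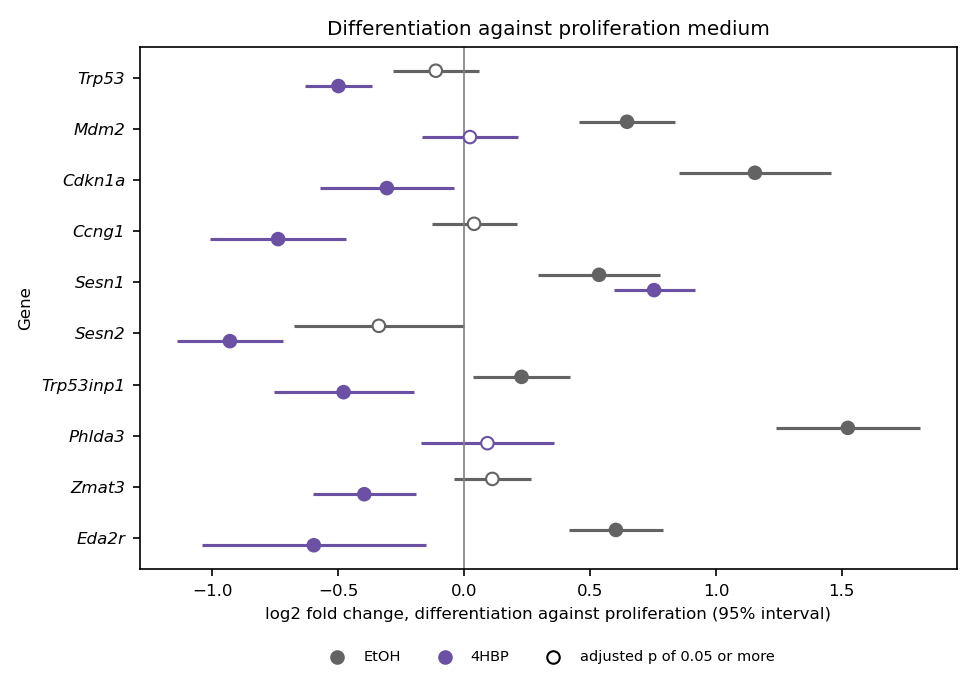
log2 fold change of differentiation against proliferation medium (horizontal axis) with its 95% interval for each gene (vertical axis), in EtOH and in 4HBP cultures. Filled points have an adjusted p under 0.05. Phlda3 is at 1.52 in EtOH cultures and at 0.09 under 4HBP, and Sesn1 is above 0 in both.

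Set beside the EtOH cultures in differentiation medium, the 4HBP cultures in proliferation medium overlapped with them in the levels of Cdkn1a, Phlda3 and Mdm2, while every library was above them for Trp53, Ccng1, Sesn2, Trp53inp1, Zmat3 and Eda2r and below them for Sesn1. These 7 of 10 without overlap stand beside 74.9% of 15920 genes, 36.8% with every library above and 38.1% with every library below, so the share is near that of all genes. Phlda3 averaged 67.1 ± 12.5 normalised CPM in the first of these groups and 73.7 ± 1.11 in the other. For Trp53 the same means were 85.0 ± 3.66 and 55.9 ± 1.53. No test was made between these 2 groups, which differ in both medium and treatment.

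Ranked by TPM within each group, Ccng1 and Cdkn1a were the most abundant of the 10. In proliferation medium with EtOH Ccng1 averaged 179 ± 8.63 TPM (SD, n = 3), Cdkn1a 96.0 ± 18.5, Sesn2 62.5 ± 13.4 and Trp53 49.0 ± 2.08, and each of these was above the next in every library. Trp53inp1, Mdm2, Phlda3, Sesn1 and Zmat3 followed between 35.2 and 20.7 TPM, neighbours in this order overlapping, and Eda2r was lowest at 10.9 ± 0.444. In proliferation medium with 4HBP Ccng1 (295 ± 70.9) and Cdkn1a (263 ± 61.1) overlapped, and Sesn1 was lowest at 15.9 ± 0.828. In differentiation medium Cdkn1a led Ccng1 in every library of each group, at 297 ± 19.3 against 245 ± 21.8 TPM with EtOH and 281 ± 11.3 against 225 ± 9.63 with 4HBP. Phlda3 came next there, at 102 ± 1.26 and 96.8 ± 2.63, and Eda2r remained lowest at 22.8 ± 2.19 and 22.3 ± 1.76.

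The estimated transcript lengths of Mdm2, Cdkn1a, Sesn1 and Zmat3 did not overlap between the media, and the share of all genes for which this holds was not counted. The gene length that RSEM reports is the mean over a gene's transcripts weighted by their estimated abundance. For Mdm2 it was between 2207 and 2674 bases in the 6 proliferation libraries and between 1954 and 2191 in the 5 differentiation libraries, without overlap. On the TPM scale, which uses this length, Mdm2 averaged 31.7 ± 5.92 in proliferation and 73.9 ± 1.00 in differentiation medium with EtOH, against 53.9 and 84.0 normalised CPM. For Cdkn1a the length was between 1879 and 1897 bases in proliferation and between 1777 and 1830 in differentiation medium. For Sesn1 these ranges were 2805.0 to 2985.7 and 2730.8 to 2776.5 bases, and for Zmat3 7622.0 to 7777.5 and 7034.5 to 7579.7. The length of Ccng1, Sesn2 and Phlda3 was the same in all 11 libraries, yet their 2 scales also differed in the change between media. In EtOH cultures Ccng1 averaged 179 TPM in proliferation and 245 in differentiation medium, against 459 and 470 normalised CPM. Sesn2 averaged 62.5 and 66.0 TPM against 159 and 125 normalised CPM, and Phlda3 26.9 and 102 against 25.8 and 73.7. The part of length in the Mdm2 values was not tested. Which transcripts differed was not examined.

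Outside the 10, smaller shares of the wider p53 network passed in proliferation medium. Of 14 p53 regulators, 1 rose with 4HBP and none fell, with a median log2 fold change of 0.08, a share close to the 7.43% of all genes tested that passed in either direction. That gene was Rchy1, which encodes Pirh2, another p53-directed ubiquitin ligase, at 0.36 (SE 0.08, edgeR adjusted p = 0.0345). It read 39.6, 42.8 and 37.6 normalised CPM with 4HBP and 32.6, 30.9 and 30.3 with EtOH. The kinases Atm, Atr, Chek1 and Chek2, which relay DNA damage to p53, had log2 fold changes of 0.22, 0.03, -0.56 and 0.02 and did not pass.

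Of 24 listed targets in arrest, repair and metabolism 22 could be tested, and 6 rose and none fell, beside 3.74% of all genes tested as higher and 3.69% as lower, with a median log2 fold change of 0.18. Gdf15, a secreted stress cytokine, changed most, with 4.31, 8.03 and 9.0 normalised CPM with 4HBP and 1.27, 0.493 and 0.843 with EtOH. Its log2 fold change was 3.02 (SE 0.37, edgeR adjusted p = 0.0048), and the gene is on the ATF4 list too. Dcxr, a carbonyl reductase, rose by 0.86, Ephx1, the microsomal epoxide hydrolase, by 0.85, Plk2, a polo-like kinase, by 0.74, and Polk, a translesion DNA polymerase, by 0.65. The sixth was Ercc5, a nucleotide excision repair nuclease. Of the apoptosis targets 3 of 12 rose and none fell, against the same shares of all genes, with a median of 0.36. Tnfrsf10b, a death receptor for TRAIL, rose by 1.69 (SE 0.23), Pmaip1, which encodes the BH3-only protein Noxa, by 1.54 (SE 0.26) and Aen, an apoptosis-enhancing nuclease, by 0.86 (SE 0.11). Bax and Bbc3 (Puma), at 0.17 and 0.37, did not pass. Without EtOH replicate 1 the arrest list had 1 call and the apoptosis list 1, beside 107 of 14685 genes. Without EtOH replicate 2 the numbers were 1 and 2, beside 137 of 14688. With limma on log2(CPM+1) both had 0, with 8 of 24 (all higher) and 5 of 12 (4 higher and 1 lower) at an unadjusted p under 0.05, beside 14.7% of the 27295 genes in that fit.

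**Figure D5:**
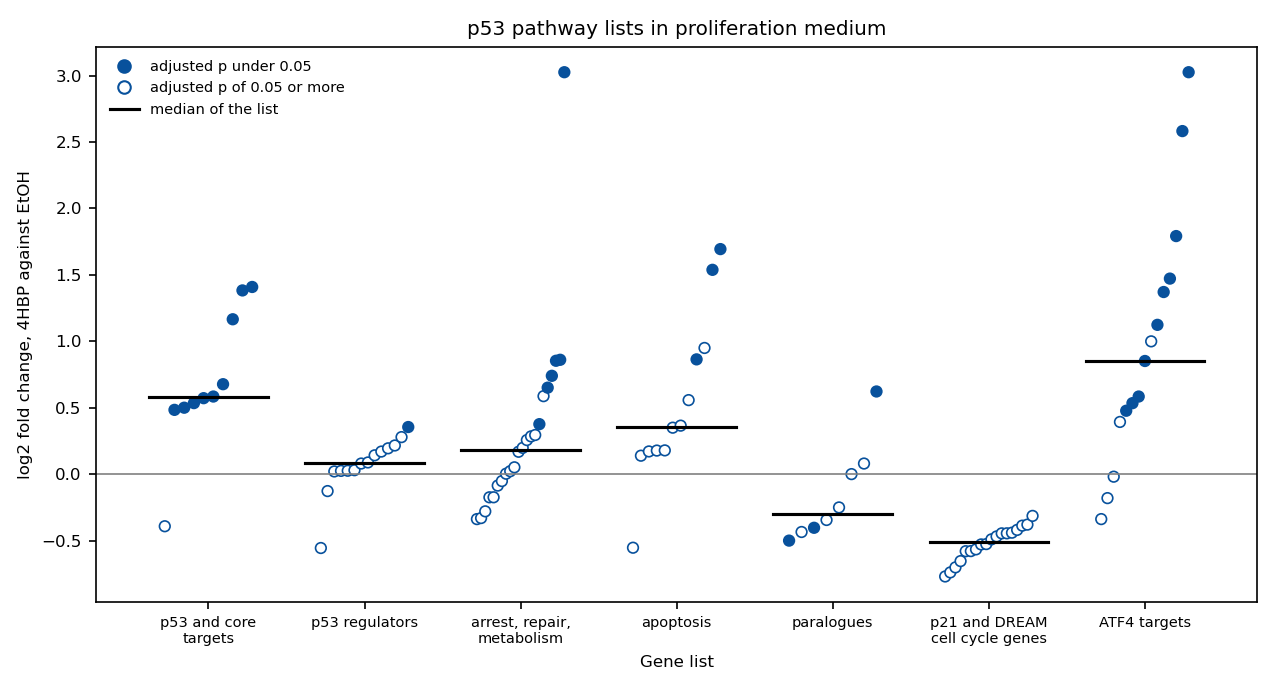
log2 fold change of 4HBP against EtOH in proliferation medium (vertical axis) for each tested gene of the 7 lists (horizontal axis). Filled points have an adjusted p under 0.05 and bars are list medians, at 0.58 for p53 and its core targets, 0.36 for apoptosis and -0.51 for the cell cycle genes, none of which is filled.

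The paralogues of the 10 genes did not all follow them. Of 13 paralogues 8 could be tested in proliferation medium, 1 rose and 2 fell, beside 3.74% of all genes tested as higher and 3.69% as lower, and the median log2 fold change was -0.30. The 3 calls became 1 with the replicate block, beside 534 of 14449 genes, and 0 with limma on log2(CPM+1), beside 67 of 27295. With DESeq2 they became 5, beside 1633 of 13607. Phlda1, a relative of Phlda3, rose by 0.62. Cdkn1c, which encodes the p21 relative p57, fell by 0.50, with 26.4, 33.4 and 29.0 normalised CPM with 4HBP against 43.3, 45.4 and 36.8 with EtOH (edgeR adjusted p = 0.0336). Trp53inp2 fell by 0.40 and also differed between the media in its 4HBP effect, by -0.56 (edgeR adjusted p = 0.0272). Sesn3 and Ccng2, at -0.43 and -0.34, did not pass, with edgeR adjusted p-values of 0.0608 and 0.0507.

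Of 18 cell cycle genes that p53 represses through p21 and the DREAM complex, none passed the edgeR test in proliferation medium, although all 18 had negative log2 fold changes, from -0.77 for E2f1 to -0.31 for Cdc20. At an unadjusted p under 0.05 there were 8, beside 25.1% of all genes tested. With DESeq2 3 passed, beside 1633 of 13607 genes, and with voom 3, beside 1703 of 15920. None passed with limma on log2(CPM+1), beside 67 of 27295. With no filter on low counts 6 passed, beside 1546 of 23759 genes, and 16 had an unadjusted p under 0.05, beside 17.2% of all genes. With the replicate block none passed, beside 534 of 14449 genes, and all 18 had an unadjusted p under 0.05, beside 21.3%. Mki67, the proliferation marker, read 279, 315 and 156 normalised CPM with 4HBP and 321, 423 and 336 with EtOH. Of the 6 libraries, 4HBP replicate 3 had the most Cdkn1a and the least Mki67, and EtOH replicate 2 the least Cdkn1a and the most Mki67. Other libraries broke this order. 4HBP replicate 2 had more of both genes than replicate 1 (Cdkn1a 320 and 282). EtOH replicate 3 had the most Cdkn1a of its group (154) but not the least Mki67. A link between the 2 genes was not tested.

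The ATF4 list, included because Sesn2 and Gdf15 belong to both networks, had 10 of 15 genes higher with 4HBP in proliferation medium and none lower, beside 3.74% of all genes tested as higher, with a median log2 fold change of 0.85. After Gdf15 the largest were Nupr1 at 2.58, Trib3 at 1.79, Slc7a11 at 1.47 and Asns at 1.37. Ddit4, also listed both as a p53 target and as an ATF4 target, went the other way and did not pass. It read 43.4, 57.4 and 50.1 normalised CPM with 4HBP and 65.3, 66.3 and 59.1 with EtOH. The transcription factor Ddit3 (CHOP), at 1.00, did not pass (edgeR adjusted p = 0.0991). Without EtOH replicate 1 the ATF4 list had 5 calls, beside 107 of 14685 genes. Without EtOH replicate 2 or 4HBP replicate 2 it had 6, beside 137 of 14688 and 290 of 14727. With limma on log2(CPM+1) or log2(CPM+0.1) none of the 15 passed, and 10 had an unadjusted p under 0.05, all higher, beside 14.7% and 14.6% of all genes in those fits. Which of p53 and ATF4 acted on Sesn2, or on any other gene of these lists, cannot be told apart here.

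In differentiation medium the further lists gave 4 calls between 4HBP and EtOH, where 2.55% of all genes tested passed. The mitotic cyclin Ccnb1 was higher by 0.49 (edgeR adjusted p = 0.0476) and Slc7a11, the cystine transporter, by 0.29, and Zmat1 and Slc7a5 fell by 0.30 and 0.17. No p53 regulator or target on the arrest and apoptosis lists passed the edgeR or the DESeq2 test there. Among the apoptosis targets Pmaip1 passed as lower with no filter on low counts (log2 fold change -0.25) and with the replicate block (-0.30), in which Steap3 also passed as higher (0.27). The 4 calls were lost without 1 or more of the libraries.

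Between the media in EtOH cultures, the median log2 fold changes of the apoptosis targets and of the regulators lay on opposite sides of 0. Of the 12 apoptosis genes 8 were higher in differentiation medium and none was lower, where 62.9% of all genes tested passed in either direction, 31.4% as higher and 31.5% as lower. Their share called in either direction was thus near that of all genes. Their median log2 fold change was 0.72, led by Steap3 at 2.94, Pmaip1 at 2.35 and Tnfrsf10b at 1.13. Against the same shares, 2 of the 14 regulators were higher and 9 were lower, with a median of -0.26, and Chek1 fell by 2.90. All 18 cell cycle genes fell, by a median of 2.88, and Cdkn1c fell by 3.95. Trp63, the p53 family member, had 0 counts in all 6 proliferation libraries and between 2.31 and 4.04 normalised CPM in differentiation medium, at least 26.9-fold higher in EtOH cultures against a floor of 3 counts per library.

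The genes whose levels tracked Cdkn1a most closely over the 11 libraries, by Pearson correlation of log2 normalised CPM among 15920 genes, were Aen (r = 0.99), Cpeb1 (0.99), Tnfrsf10b (0.99), Creb3l1 (0.98) and Agap1 (0.98). Within the 10 genes, Phlda3 (0.96), Mdm2 (0.93) and Eda2r (0.90) came nearest to Cdkn1a, and Sesn1 was farthest (-0.10). For Trp53 the 5 closest were Thumpd3 (0.98), Snapc4 (0.97), Wars (0.97), Syde1 (0.97) and Prpf19 (0.97), with Ccng1 (0.91), Sesn2 (0.91) and Zmat3 (0.89) nearest among the 10 and Sesn1 again farthest (-0.86). The libraries share groups and depth, so these values describe the pattern over 4 groups and no more.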

How the data were processed

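The authors trimmed the reads with cutadapt and quantified them with RSEM 1.3.0 and Bowtie2 2.2.9 (per the submitters' processing notes) against GRCm38 with GENCODE genes, and deposited for each of the 11 libraries the expected count per gene, its TPM, normalised by RSEM for length and depth, and its FPKM, which was not used. Positions and symbols came from the GENCODE vM21 annotation of that build. Here the deposited expected counts were rounded, filtered by filterByExpr by group, scaled by TMM and tested with edgeR 4.0.16 (glmQLFit and glmQLFTest, R 4.3.3). Each comparison was fitted on its 2 groups alone, because spread differed between media, and the difference between media on all 11 libraries. A call is a Benjamini-Hochberg adjusted p under 0.05 over all genes tested. Intervals are the fold change with a standard error derived from the test statistic. The fits were tested on simulated data. Alternatives were DESeq2 1.42.0 and its size factors, library totals, no filter, limma 3.58.1 with pseudocounts of 1 and 0.1, voom with library weights, 1 fit of all libraries, the replicate number as a block, and fits without 1 library. The 10 genes are all named, with up to 5 called genes per further list and comparison by absolute fold change, and the 5 genes most like Trp53 and Cdkn1a. Further genes (the damage kinases, Bax, Bbc3, Ercc5, Sesn3, Ccng2, E2f1, Cdc20, Mki67, Ddit3) were named after their values were seen. The genes and lists were chosen with earlier results of these data known.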

Additional observations from a re-analysis of the deposited data

Results flagged for a closer look

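The 4HBP effect differed between the media, by the edgeR test of the difference itself, for 22 of the 28 genes of the p53 network that were examined for it (the 10 core genes and the leading genes of the further lists). The values below are the log2 effect in proliferation medium minus that in differentiation medium. Among the core genes the difference was 0.38 for Trp53, 0.62 for Mdm2, 1.46 for Cdkn1a, 0.78 for Ccng1, 0.70 for Trp53inp1, 1.43 for Phlda3, 0.51 for Zmat3 and 1.20 for Eda2r. Among the regulators it was 0.37 for Rchy1. Among the targets in arrest, repair and metabolism it was 3.04 for Gdf15, 0.88 for Ephx1, 0.85 for Plk2 and 0.77 for Polk. Among the apoptosis targets it was 1.68 for Tnfrsf10b, 1.78 for Pmaip1, 0.82 for Aen and -0.80 for Steap3. It was -0.56 for the paralogue Trp53inp2. Among the ATF4 targets it was 2.89 for Nupr1, 1.17 for Slc7a11, 1.3 for Asns and 1.29 for Slc7a5. These genes were examined because they led their lists, so their number has no meaning as a rate. No group had the 4 samples needed to flag a single outlying library by rule. That 4HBP replicate 3 stood apart in proliferation medium, as given above, is a description only.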

How the results depend on the processing

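The directions of the called p53 genes held under every alternative run, and what changed was the number of calls. Over the 10 genes, each fit without 1 library kept direction and call in 40 of 60 cases for 4HBP in proliferation medium and in 70 of 110 for the difference between media, and the other settings did so in 66 of 90 and 63 of 80. In proliferation medium 9 of the 10 genes were called, against 0 with limma on log2(CPM+1) and 0 with limma on log2(CPM+0.1), and between 2 and 9 when 1 library was left out. In differentiation medium 0 were called, against 2 (Sesn1 and Trp53inp1) with no filter on low counts and 0 throughout when 1 library was left out. Under 4HBP the 8 calls between media became 4 with either limma setting, beside 10043 and 10111 of 27295 genes with log2(CPM+1) and log2(CPM+0.1). For the difference between media the 8 calls became 2 and 0 with limma on log2(CPM+1) and log2(CPM+0.1), and between 2 and 8 without 1 library. The causes were not tested.

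Over all genes, the 1074 calls in proliferation medium became 1633 with DESeq2, 2668 with all 11 libraries in one fit, 1703 with voom, 67 and 56 with limma on log2(CPM+1) and log2(CPM+0.1), and between 107 and 1429 without 1 library. The 395 calls in differentiation medium became 0 in one fit of all 11 libraries, 63 with voom, 0 and 147 (34 higher, 113 lower, against 195 and 200) with the limma settings, 778 with no filter, and between 77 and 288 without 1 library. The 715 calls for the difference between media became 1086 with DESeq2, 1616 with no filter, 264 and 157 (105 larger and 52 smaller in proliferation, against 320 and 395) with limma, and between 124 and 1100 without 1 library. In EtOH cultures limma on log2(CPM+1) called 5358 genes higher and 3450 lower in differentiation medium, and with log2(CPM+0.1) 5207 and 3455, against 4810 and 4821.

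Log2 fold changes of genes that were not called changed sign when 1 library was left out. With 4HBP in differentiation medium these ranged from -0.12 to 0.0070 for Cdkn1a, -0.084 to 0.067 for Sesn2, -0.034 to 0.082 for Zmat3 and -0.13 to 0.057 for Eda2r. Between media they ranged from -0.060 to 0.13 for Ccng1 in EtOH cultures and from -0.061 to 0.076 for Mdm2 under 4HBP.

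Replicate numbers were shared between groups, but libraries with the same number did not deviate together (correlations from -0.127 to 0.0832), so they were not treated as pairs. With the replicate block 8 of the 10 genes were called in proliferation medium, 3 in differentiation medium (Mdm2, Ccng1 and Trp53inp1, all lower), 9 for the difference between media, 5 between media in EtOH cultures and 8 under 4HBP. Over all genes the block gave 534 calls in proliferation and 745 in differentiation medium, and Zmat3 in differentiation medium was at -0.017.

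The lowest count of any of the 10 genes in any library was 417, for Phlda3 in EtOH-treated proliferating cells.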
